A study of Mus musculus with 8 samples.

Results

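The genes described here are 8 members of the cytosolic DNA sensing pathway around cGAS and STING, followed through 6 RNA-seq libraries of transfected Neuro2a cells. They were chosen by name: Cgas, Sting1, Tbk1, Ikbke, Ifi204, Ifi203, Aim2 and Trex1. All 8 have a row in the deposited count table, which holds 55367 genes. Neuro2a is an established mouse neuroblastoma cell line. The study transfected it with plasmids for CRISPR activation (CRISPRa), in which a nuclease-dead Cas9 from Staphylococcus aureus (sadCas9) brings the activator domain VP64 to a gene named by a guide RNA (sgRNA). By its title the study concerns SCN2A-related disorders.

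Cells of the CRISPRa group received the plasmid encoding the sgRNA (750 ng) together with the one encoding sadCas9-VP64 (also 750 ng). The control group, called no sgRNA, was given the sadCas9-VP64 plasmid without a guide plasmid. Both groups thus carry sadCas9-VP64 and transfected DNA, and no untransfected culture is among the labelled samples. The amount of plasmid in the controls, any filler DNA and the time of harvest are not stated, so the guide and the additional plasmid DNA cannot be told apart as sources of a difference. The 8 labelled samples are 4 per group. Counts were analysed for CRISPRa replicates 2, 3 and 5 and for no-sgRNA replicates 2, 3 and 4. Nothing in the labels says that replicates are separate cultures, so the p-values measure the spread between these libraries, which may be technical.

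In background terms, the enzyme cGAS binds double-stranded DNA in the cytosol and makes the second messenger cGAMP. cGAMP binds STING on the endoplasmic reticulum, which moves to the Golgi and recruits the kinase TBK1, or its relative IKKε (the product of Ikbke). These phosphorylate the transcription factor IRF3, which turns on interferon-β and other antiviral genes. AIM2, Ifi203 and Ifi204 belong to the PYHIN family of DNA-binding proteins. AIM2 assembles an inflammasome with the adaptor ASC (Pycard) and caspase-1. TREX1 is a DNA exonuclease that removes cytosolic DNA and so restrains the pathway. Introduced plasmid DNA is a known ligand of these sensors.

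Library totals ran from 29739422 to 34248514 counts, and scaling factors by the trimmed mean of M-values (TMM) from 0.978 to 1.01. Expression is given below as CPM, a gene's count relative to its library's TMM-scaled total. Of 14 neuroblastoma markers, 13 passed the filter on low counts. By the test below, 2 of these were called higher with CRISPRa and 2 lower, where 18.7% of all tested genes were called. Of 12 macrophage and microglia markers, 4 had 0 counts in every library, namely Adgre1, Itgam, Cx3cr1 and Lyz2, and Ptprc had at most 2. In that list 2 genes passed the filter and neither was called. The summed level of the list was 2.11 to 2.93 CPM with CRISPRa and 1.55 to 2.66 CPM without the guide. Of 8 fibroblast markers, 4 passed the filter and 2 of these were called, both lower with CRISPRa. Col3a1, Thy1 and Fap were at 0 in every library. The summed level of the 8 was 14.6 to 21.4 CPM with CRISPRa against 28.6 to 32.4 CPM without the guide. The part of that difference in the results below was not tested.

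Of the 8 members, Tbk1 and Aim2 rose with CRISPRa, by 1.20-fold and 1.37-fold. Cgas and Sting1 were expressed in every library and did not pass the test. Ikbke, Ifi203 and Ifi204 lay near the detection limit, and Trex1 was listed at 0 throughout. A gene was called changed at a Benjamini-Hochberg adjusted p under 0.05 in edgeR's quasi-likelihood test over all 15117 genes that passed the filter. By that rule 2 of the 5 members tested were changed, where 18.7% of all tested genes were. Over all tested genes, 9.47% were called higher and 9.25% lower. The groups did not overlap for 3 members, Tbk1, Aim2 and Sting1, against 36.4% of all tested genes. The median log2 fold change of the 5 tested members was 0.27, and that of all tested genes was -0.0071. The 3 members that did not pass the filter are not in that median.

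**Figure D1:**
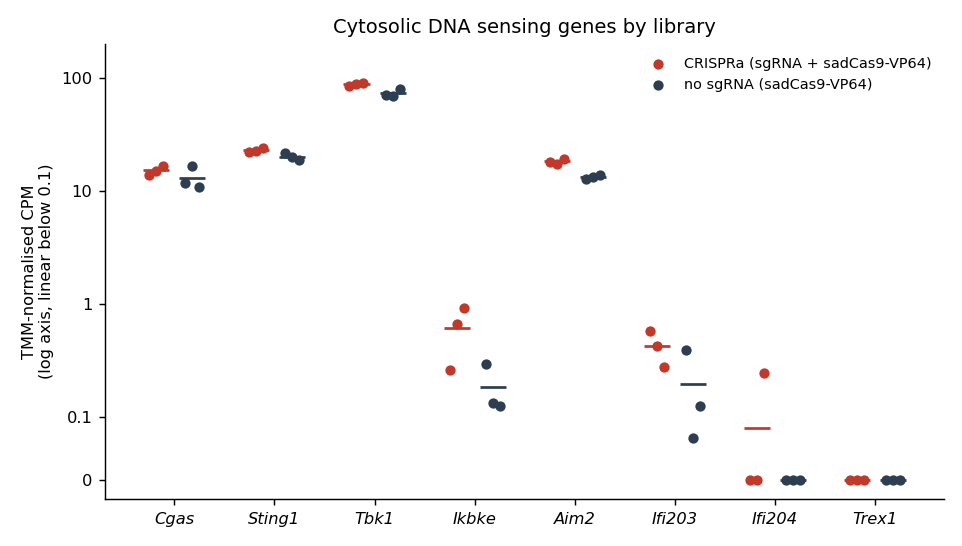
Normalised expression (TMM-scaled CPM, log axis that is linear below 0.1) of the 8 members in 3 CRISPRa and 3 no-sgRNA libraries; each point is a library and each bar a group mean. Cgas, Sting1, Tbk1 and Aim2 lie above 10 CPM in every library, Ikbke, Ifi203 and Ifi204 lie below 1 CPM, and Trex1 is at 0.

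Cgas (chromosome 9, 78430526 to 78443237, minus strand, GRCm38) encodes the sensor that starts the pathway. It stood at 14.0, 15.0 and 16.7 CPM in CRISPRa replicates 2, 3 and 5 and at 11.9, 16.8 and 10.8 CPM in no-sgRNA replicates 2, 3 and 4. The control replicate 3 was as high as the highest CRISPRa library, so the groups overlapped. The means were 15.2 ± 1.38 and 13.1 ± 3.17 CPM (SD, n = 3). The log2 fold change was 0.21 with a 95% interval from -0.11 to 0.54 (edgeR adjusted p 0.373). Folds between 0.924 and 1.46 therefore lie within the interval. In the authors' deposited table Cgas had a log2 fold change of 0.11 (adjusted p 0.619). A single control library set much of this spread. Without no-sgRNA replicate 3 the log2 fold change of Cgas was 0.43 (edgeR adjusted p 0.0674), and without no-sgRNA replicate 4 it was 0.092. Of the exonic bases of Cgas, 4.87% lie opposite the annotated gene Gm8093.

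Sting1 (chromosome 18, 35733679 to 35740554, minus strand) encodes the cGAMP receptor and adaptor STING. The CRISPRa libraries read 22.2, 22.5 and 24.0 CPM, and the controls 21.7, 20.1 and 18.9 CPM. Every CRISPRa library was above every control, by a margin that was small beside the spread. The log2 fold change was 0.18 (SE 0.10), with a 95% interval from -0.03 to 0.39, and the edgeR adjusted p was 0.242. Sting1 was thus not called, and its interval reaches 1.31-fold. The authors' deposited table gives Sting1 a log2 fold change of 0.08 (adjusted p 0.574).

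Tbk1 (chromosome 10, 121546455 to 121586787, minus strand) encodes the kinase that STING recruits and that phosphorylates IRF3. It had the highest level of the members, at 85.4, 89.2 and 90.9 CPM in the 3 CRISPRa libraries against 71.3, 69.5 and 79.6 CPM in the 3 controls. The lowest CRISPRa library was above the highest control. The means were 88.5 ± 2.80 and 73.5 ± 5.37 CPM (SD, n = 3). The log2 fold change was 0.27 (SE 0.07), or 1.20-fold with a 95% interval from 1.08 to 1.34 (edgeR adjusted p 0.0186). The call was lost in 3 of the 6 fits that left out 1 library, with adjusted p-values of 0.0602 without CRISPRa replicate 3, 0.0663 without no-sgRNA replicate 2 and 0.0964 without no-sgRNA replicate 3. In the authors' deposited table, made from all 8 labelled samples, Tbk1 had a log2 fold change of 0.23 and an adjusted p of 0.000805.

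Ikbke (chromosome 1, 131254343 to 131279606, minus strand) encodes IKKε, the kinase most similar to TBK1, whose gene is itself known to be induced in immune responses. Its counts were 9, 22 and 30 with CRISPRa but 9, 4 and 4 in the controls. CRISPRa replicate 2 and no-sgRNA replicate 2 held the same number of counts, so the groups overlapped, and Ikbke did not pass the filter. In the fit with no filter its log2 fold change was 1.72 (SE 0.73, edgeR adjusted p 0.115). The authors' deposited table lists Ikbke at 0.72 on the log2 scale, with an unadjusted p of 0.290 and no adjusted p. Per kilobase of exon, Tbk1 was 374 times as abundant as Ikbke in the CRISPRa libraries and 989 times in the controls (geometric means over 3 libraries). The log2 ratio of Ikbke to Tbk1 differed by 1.40 between the groups, with an exact two-sided permutation p of 0.2, where 3 against 3 cannot go below 0.1. The groups overlapped in this log2 ratio, whose SD was 0.90 in the CRISPRa group and 0.73 in the controls (n = 3). The difference rests on at most 30 counts of Ikbke per library.

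Aim2 (chromosome 1, 173350879 to 173466040, plus strand) encodes the DNA-binding receptor of an inflammasome. It read 18.2, 17.4 and 19.3 CPM in the CRISPRa group, against 12.8, 13.3 and 13.9 CPM in the controls. Each group was tight, and the gap between them was wider than the range within either. The means were 18.3 ± 0.952 and 13.3 ± 0.512 CPM (SD, n = 3). The log2 fold change was 0.46 (SE 0.11), or 1.37-fold with a 95% interval from 1.17 to 1.61 (edgeR adjusted p 0.00898). Aim2 kept its call in all 6 fits that left out 1 library, with adjusted p-values from 0.0170 to 0.0343. In the authors' deposited table Aim2 had a log2 fold change of 0.41 and an adjusted p of 0.000250. Of its 50-base words, 0.742% also occur in transcripts of other genes.

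In the inflammasome list, Pycard, Casp1 and Il18 were near or below detection, while Gsdmd was expressed in both groups. Pycard, which encodes ASC, had 2, 1 and 6 counts with CRISPRa and 6, 8 and 12 without the guide. Casp1 had 10 counts in CRISPRa replicate 2 and 0 in every other library, and Il18 had 0 in all 6. Gsdmd, which encodes the pore-forming protein gasdermin D, rose from 7.13 ± 0.503 to 12.1 ± 1.02 CPM (SD, n = 3; log2 change 0.76, edgeR adjusted p 0.00144). It was the 1 gene called among the 4 tested of the 8 in the inflammasome list, beside 18.7% of all tested genes.

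The other PYHIN genes lie with Aim2 in a cluster on chromosome 1 and were almost silent. Ifi203 (173920407 to 173942672, minus strand) had 20, 14 and 9 counts with CRISPRa and 12, 2 and 4 without the guide. Its log2 fold change of 1.12 had a 95% interval from -0.34 to 2.58 (edgeR adjusted p 0.288), so a difference in either direction was within the error. It was 2.10 without no-sgRNA replicate 2 and 0.72 without no-sgRNA replicate 3, and was not called in either fit. Ifi204 (173747293 to 173766943, minus strand), the mouse gene most often likened to human IFI16, had 8 counts in CRISPRa replicate 5 and 0 in the 5 other libraries. A count of 0 allows up to 3 counts, or 0.0876 to 0.101 CPM in these libraries, if counts are independent, and more if they are not. None of the 10 other PYHIN genes in the table passed the filter, and 5 of them had 0 counts everywhere. Ifi202b reached 10 counts and Mndal 10, both in CRISPRa replicate 5. Summed over the 12 PYHIN genes other than Aim2, the libraries held 28, 18 and 46 counts with CRISPRa and 18, 3 and 8 without the guide.

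Sequence shared between PYHIN genes limits these values further. Of the 50-base words of Ifi204 transcripts, 20.0% also occur in other genes, mostly in Ifi211, and of those of Ifi203 12.4%, mostly in the pseudogene Ifi203-ps. Low counts in this table are also not independent molecules. Of the gene counts from 1 to under 30, from 71.2% to 73.7% were even numbers in each library, against 52.3% to 54.3% of counts from 300 to under 3000. The spread expected from counting single reads is therefore too small for genes such as Ikbke and Ifi203.

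Trex1 (chromosome 9, 109057933 to 109059734, minus strand) had 0 counts in all 6 libraries, and this 0 gives no information on its expression. All 1147 exonic bases of Trex1 in the count table also lie in exons of Atrip, on the same strand. Across the table, 727 genes had every exonic base shared with a gene on the same strand, and all 727 had 0 counts in every library. A further 436 genes were covered fully by genes on the opposite strand and by none on their own, and these 436 were also at 0 throughout. Of the 43790 genes that share no exonic base, 41.5% had a count in at least 1 library. A gene whose exonic bases were all shared thus had no count, whichever strand the other gene lay on. Atrip, which encodes the partner of the DNA damage kinase ATR and has further exons of its own, stood at 14.0 ± 1.67 CPM in the CRISPRa group, against 15.5 ± 1.44 CPM in the controls (SD, n = 3; edgeR adjusted p 0.448).

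**Figure D2:**
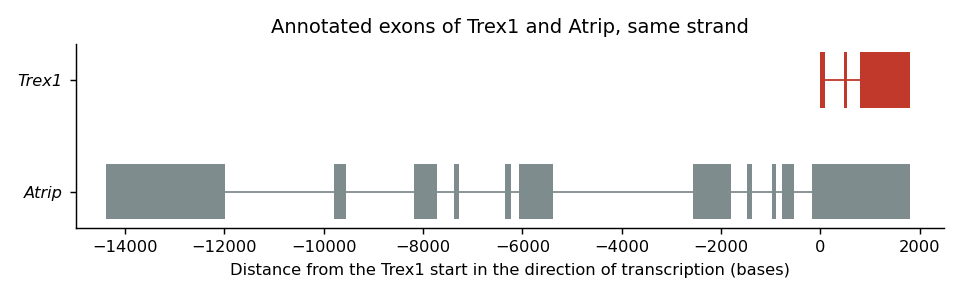
Exons of Trex1 and Atrip as the count table annotates them, drawn by distance in bases from the Trex1 start (x axis, in the direction of transcription); blocks are exons and lines join the gene span. Every Trex1 exon lies within an exon of Atrip, and Trex1 has 0 counts in every library.

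Levels of different genes were compared as CPM per kilobase of exon. The order was Tbk1, Sting1, Aim2 and Cgas in both groups. With CRISPRa the levels were 22.6 ± 0.715 for Tbk1, 8.35 ± 0.356 for Sting1, 5.23 ± 0.272 for Aim2 and 3.69 ± 0.334 for Cgas (CPM per kilobase, SD, n = 3). Without the guide they were 18.8 ± 1.37, 7.38 ± 0.502, 3.81 ± 0.146 and 3.19 ± 0.768 in the same order. Tbk1 exceeded Sting1 by 2.31 to 2.95 times in every library, and Sting1 exceeded Aim2 by 1.56 to 2.16 times. The order of Aim2 and Cgas was not fixed, as their ratio ran from 0.935 in no-sgRNA replicate 3 to 1.53. Tbk1 was above 82.3% of tested genes by this measure, Sting1 above 59.8%, Aim2 above 46.5%, Cgas above 41.0% and Ifi203 above 0.423%.

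Whether the expressed members responded unequally was tested on their ratios within each library, which do not depend on scaling. The 6 ratios among Tbk1, Sting1, Aim2 and Cgas were chosen after the values were seen. The groups did not overlap for Tbk1 over Aim2 (difference of log2 ratios -0.19) and for Sting1 over Aim2 (-0.28). Both had an exact two-sided permutation p of 0.1, the smallest that 3 libraries against 3 can give, and 0.3 after adjustment over the 6 ratios. The other 4 ratios overlapped between the groups, with exact permutation p-values from 0.4 to 0.9. At this number of libraries the test could not pass 0.05 whatever the values, so it does not decide whether Aim2 responded more than Tbk1 or Sting1.

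**Figure D3:**
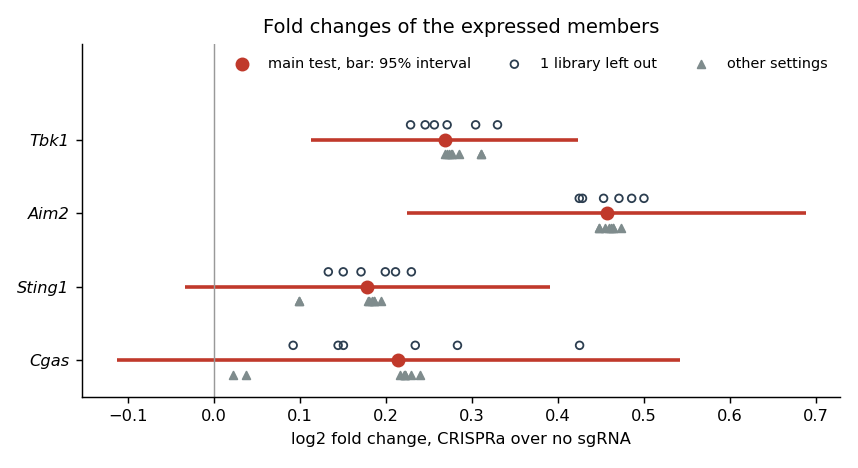
Log2 fold change (CRISPRa over no sgRNA, x axis) of the 4 expressed members; filled circles with bars give the main test and its 95% interval, open circles the 6 fits without 1 library, triangles the 8 other settings. Tbk1 and Aim2 have intervals above 0, those of Sting1 and Cgas include 0, and Cgas moves most when 1 library is left out.

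The promoter windows of the members were examined for the interferon-stimulated response element (ISRE), the DNA motif bound by interferon-activated factors. This describes the sequence before their RefSeq starts. RefSeq windows of 250 bases before to 50 bases after each start were searched on both strands for GAAA, any 2 bases and GAAA again, with overlapping matches counted. The motif occurs in 3.44% of 32851 mouse windows of that length. Windows were available for 6 of the 8 members. Tbk1, Aim2, Cgas, Ikbke and Trex1 held no match, and 1 of the 2 windows of Ifi203 held a match. For comparison, 8 of the 10 other PYHIN genes held a match. Stretches of 150 bases outside annotated exons (GRCm38.p6, written 5′ to 3′ on the gene's strand, with matches in capitals) are given for the 2 members that rose, for Cgas and Ifi203, which were not called, and for the interferon-stimulated gene Isg15.
Tbk1: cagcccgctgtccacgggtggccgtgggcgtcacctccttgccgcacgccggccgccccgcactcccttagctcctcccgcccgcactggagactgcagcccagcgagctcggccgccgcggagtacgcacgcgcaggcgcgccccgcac
Aim2: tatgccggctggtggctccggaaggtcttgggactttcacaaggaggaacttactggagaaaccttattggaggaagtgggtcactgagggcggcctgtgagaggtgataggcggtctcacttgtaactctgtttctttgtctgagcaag
Cgas: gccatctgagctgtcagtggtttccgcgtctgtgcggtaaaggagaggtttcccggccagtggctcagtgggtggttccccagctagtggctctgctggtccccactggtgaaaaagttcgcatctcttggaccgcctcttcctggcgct
Ifi203: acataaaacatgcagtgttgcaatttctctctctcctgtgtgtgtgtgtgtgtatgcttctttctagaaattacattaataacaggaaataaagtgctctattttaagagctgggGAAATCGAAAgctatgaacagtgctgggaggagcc
Isg15: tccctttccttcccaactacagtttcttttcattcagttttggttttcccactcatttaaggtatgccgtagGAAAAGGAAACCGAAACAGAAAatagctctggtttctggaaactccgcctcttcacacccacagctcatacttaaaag
The Tbk1 stretch is chr10:121586795-121586944, minus strand, and ends at the base before the RefSeq start. The Aim2 stretch is chr1:173420421-173420570, plus strand, and ends 34 bases before the RefSeq start. This stretch lies inside the annotated span of Aim2, whose start at 173350879 was not in the window searched. The Cgas stretch is chr9:78443238-78443387, minus strand. The Ifi203 stretch is chr1:173942493-173942642, minus strand, with a match that begins 35 bases before the RefSeq start. This stretch also lies inside the annotated span, which starts at 173942672 on this strand. The Isg15 stretch is chr4:156200819-156200968, minus strand, with 3 overlapping matches that begin 78, 72 and 66 bases before the start.

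Set beside the expression values, matches were present in genes that rose and in genes that were barely detected. The members that were called, Tbk1 and Aim2, had no match in the window. Irf7, Adar, Trim56, Lrrfip1 and Samhd1, all called higher as given below, had no match in any window either. No window was available for Zbp1, Usp18, Ccl5, Gsdmd, Relb, Ikbkb, Prkdc, Rhbdf2 and Dnase1l3, which were called higher too. Cxcl10 and Ifit1, also called higher, held 1 and 2 matches. Ifi203 and the 8 matching PYHIN genes stayed at 20 counts or fewer in every library. Isg15, with 3 overlapping matches, rose from 13.5 ± 1.78 to 238 ± 23.5 CPM (SD, n = 3). A match is a run of letters and not a measured binding site, and its absence concerns this window only.

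The surrounding pathway was described with 9 lists of 112 genes in the table, of which 91 passed the filter. Of these, 28 were changed, 24 higher and 4 lower, a share of 30.8% beside 18.7% of all tested genes. The median log2 fold change of the 91 was 0.06. All 28 kept their direction in the 14 alternative settings, and 21 kept their call in each of the 6 fits that left out 1 library. The lists were written with earlier results of these libraries known and are not independent evidence of a direction.

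**Figure D4:**
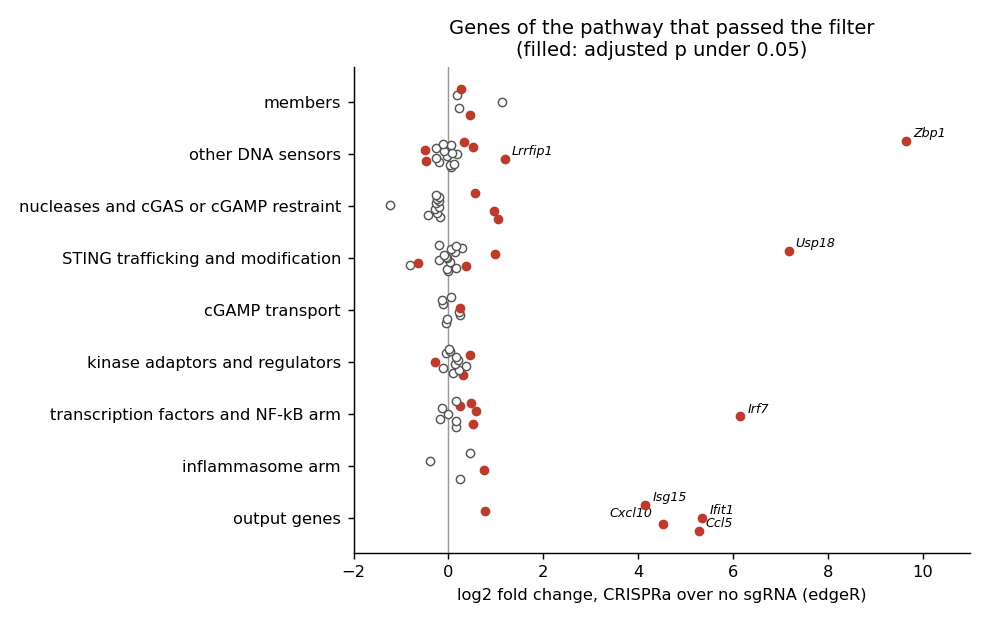
Log2 fold change (CRISPRa over no sgRNA, edgeR, x axis) of each gene that passed the filter, by list; filled points have an adjusted p under 0.05. Most points lie near 0, Zbp1, Usp18, Irf7, Ifit1, Ccl5, Cxcl10 and Isg15 lie above 4, and the value of Zbp1 is a fitted one against controls with 0 counts.

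Of the 3 scaffold genes whose products bind TBK1, Tbkbp1 and Azi2 rose and Tank was not called. Tbkbp1, which encodes the scaffold SINTBAD, read 49.5, 53.4 and 57.3 CPM in the CRISPRa group, against 38.9, 44.4 and 34.4 CPM in the controls (log2 change 0.44, SE 0.10, edgeR adjusted p 0.00520). Azi2, which encodes the scaffold NAP1, went from 57.5 ± 1.83 to 70.6 ± 1.53 CPM (SD, n = 3; log2 change 0.30, edgeR adjusted p 0.00830). The groups did not overlap for either scaffold gene, as was so for 36.4% of all tested genes. Tank, the remaining scaffold gene of this group, had a log2 fold change of 0.20 and was not called (edgeR adjusted p 0.268). Ppm1b, which encodes a phosphatase known to act on TBK1, fell from 123 ± 4.28 to 101 ± 2.80 CPM (SD, n = 3; log2 change -0.28, edgeR adjusted p 0.00661). In the list of kinase adaptors and regulators 3 of 13 tested genes were called, beside 18.7% of all tested genes. Of the 3, 2 were higher and 1 lower, and the list's median was 0.13. Of the 50-base words of Ppm1b, 13.4% also occur elsewhere, mainly in Gm7895.

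Downstream of the kinases, Irf7 and part of the NF-κB arm rose while Irf3 was not called. Irf3, the factor that TBK1 phosphorylates, stood at 30.2, 29.0 and 26.6 CPM in the CRISPRa group, against 32.5, 36.1 and 28.9 CPM in the controls, and was not called (log2 change -0.18, edgeR adjusted p 0.230). Irf7, an interferon-induced factor of the same family, read 121, 148 and 167 CPM against 1.97, 2.22 and 1.96 CPM. That is 70.8-fold higher (log2 change 6.15, SE 0.14, edgeR adjusted p 8.58e-14). Of the NF-κB arm, which STING also engages, Nfkb2, Ikbkb, Relb and Rela rose, with log2 fold changes of 0.57, 0.51, 0.48 and 0.25. Nfkb1, Chuk, Ikbkg and Nfkbia were not called. The list had 5 of 11 genes called, all higher, with a median of 0.17, where 18.7% of all tested genes were called. Rela lost its call without CRISPRa replicates 2 or 3 or no-sgRNA replicates 2 or 4, with adjusted p up to 0.137. Of the exonic bases of Nfkb2, 18.1% lie in another gene.

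**Figure D5:**
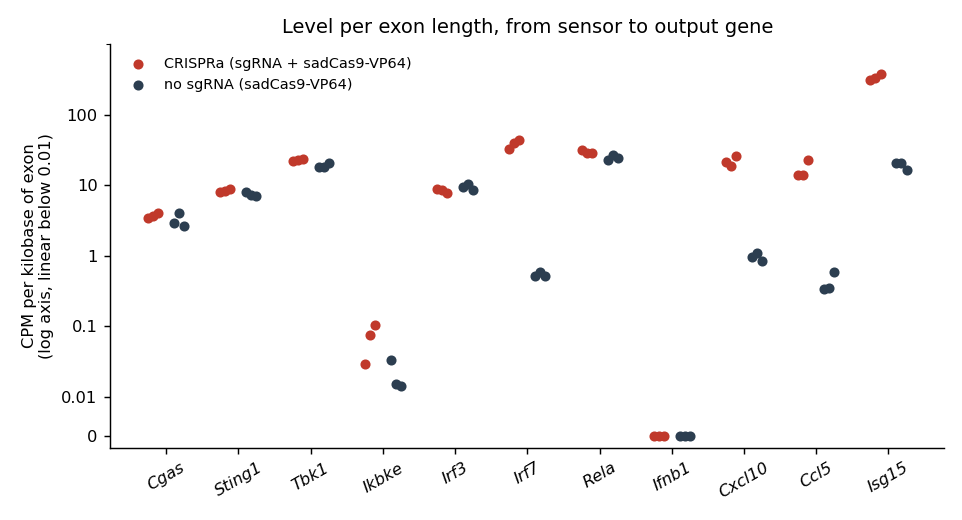
Level per kilobase of exon (CPM per kilobase, log axis that is linear below 0.01) in each of 6 libraries, ordered from the sensor Cgas to output genes. For Cgas, Sting1, Tbk1, Irf3 and Rela the groups lie close to each other on this axis, though Tbk1 and Rela were called higher. Irf7, Cxcl10, Ccl5 and Isg15 are higher in every CRISPRa library than in any control, and Ifnb1 is at 0 in all 6.

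Among the genes that the axis is known to switch on, Ifnb1, Ifna2 and Ifna4 had 0 counts in all 6 libraries, and Tnf had at most 6. Cxcl10, a chemokine gene, went from 2.14 ± 0.280 to 49.3 ± 7.54 CPM, and Ccl5 from 0.411 ± 0.137 to 16.1 ± 4.91 CPM (SD, n = 3). Ifit1 and Isg15, both interferon-stimulated, had log2 fold changes of 5.35 and 4.14. Il6 rose less, by 0.77. Of the 9 output genes, 5 passed the filter and all 5 were called higher (edgeR adjusted p at most 0.000664), where 18.7% of all tested genes were called. The median log2 fold change of these 5 was 4.53, and output genes that did not pass are not in it.

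Other DNA sensors and their helpers gave 6 calls among 18 genes, 4 higher and 2 lower, around a median of 0.04, where 18.7% of all tested genes were called. Zbp1, a receptor for nucleic acids in the Z form, had 101, 55 and 153 counts with CRISPRa and 0 in every control. Set against 3 counts per control library it was at least 31.9-fold higher, a bound that holds only if counts are independent reads and is otherwise too high (edgeR adjusted p 1.36e-05). Lrrfip1, which encodes a nucleic acid binding protein, rose from 11.9 ± 1.30 to 27.2 ± 1.44 CPM (SD, n = 3; log2 change 1.19, edgeR adjusted p 3.23e-06). Hmgb2, a chromatin protein with a reported helper role in nucleic acid sensing, fell from 513 ± 49.5 to 368 ± 33.9 CPM (SD, n = 3; log2 change -0.48, edgeR adjusted p 0.000852). Hmgb2 shares 18.7% of its 50-base words with other genes, mainly Gm4739.

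The remaining calls in that list were less stable. Prkdc and Xrcc6, which encode subunits of the DNA-dependent protein kinase, had log2 fold changes of 0.51 and 0.32, and Polr3g, a subunit of RNA polymerase III, one of -0.49. Prkdc lost its call without CRISPRa replicates 3 or 5 or no-sgRNA replicate 4 (edgeR adjusted p up to 0.124). Xrcc6 lost it without CRISPRa replicate 5 or no-sgRNA replicates 3 or 4 (up to 0.0672), and Polr3g without CRISPRa replicate 5 or no-sgRNA replicate 4 (up to 0.0697). Ddx41, Rad50, Mre11a and Dhx9 were not called.

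The list of nucleases and of genes that restrain cGAS or cGAMP also holds Adar and Samhd1, whose products act on RNA and on deoxynucleotides. In that list 3 of 14 tested genes were called higher and none lower, and Adar and Samhd1 were among the 3. The share called over all tested genes was 18.7%, and the median of the list was -0.21. Adar, the RNA-editing enzyme that marks self RNA, read 158, 162 and 174 CPM in the CRISPRa group, against 91.0, 84.6 and 64.5 CPM in the controls (log2 change 1.04, SE 0.10, edgeR adjusted p 4.54e-06). Samhd1, which degrades deoxynucleotides, went from 91.9 ± 7.27 to 136 ± 12.1 CPM (SD, n = 3; log2 change 0.56, edgeR adjusted p 0.000228). Of the exonic bases of Adar, 16.8% lie in another gene. Dnase1l3, a secreted DNase, rose by 0.96 on the log2 scale (edgeR adjusted p 0.0408) and lost its call whichever library was left out, with adjusted p up to 0.123. Banf1, whose product competes with cGAS for DNA in the nucleus, and Enpp1, which hydrolyses cGAMP, were not called, at log2 fold changes of -0.17 and -0.19 (edgeR adjusted p 0.109 and 0.218).

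The list for STING trafficking and modification had 4 calls among 18 genes, 3 higher and 1 lower, and a median of 0.01. Over all tested genes 18.7% were called. Usp18, a protease that removes ISG15 and is itself interferon-induced, read 105, 113 and 136 CPM in the CRISPRa group, against 0.983, 1.08 and 0.410 CPM in the controls (log2 change 7.17, SE 0.19, edgeR adjusted p 3.22e-13). Trim56, a ubiquitin ligase reported to modify STING and cGAS, went from 73.2 ± 1.38 to 145 ± 3.81 CPM (SD, n = 3; log2 change 0.98, edgeR adjusted p 3.21e-08). Rhbdf2, which encodes the trafficking factor iRhom2, rose by 0.38 and lost its call without no-sgRNA replicate 2 (edgeR adjusted p 0.0651). Rnf5, a ligase reported to direct STING to degradation, fell from 20.4 ± 4.04 to 13.1 ± 1.62 CPM (SD, n = 3; log2 change -0.64, edgeR adjusted p 0.00710). Of the exonic bases of Rnf5, 24.7% lie in another gene, and 28.5% of its 50-base words also occur elsewhere, mainly in Gm20463. The value of Rnf5 is therefore uncertain. Stim1, Surf4, Sec24c and Npc1 were not called.

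Transporters of cGAMP carry the messenger between cells. Lrrc8d, a subunit of a volume-regulated channel, was the 1 gene called of 8 tested, beside 18.7% of all tested genes (log2 change 0.25, edgeR adjusted p 0.0274). It lost its call without CRISPRa replicates 3 or 5 or no-sgRNA replicates 3 or 4, with adjusted p up to 0.112. The list's median was 0.01.

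The genes whose profile over the 6 libraries lay closest to each member were found by the root mean square distance of centred log2 values (0.5 CPM added), among genes at 1 CPM or more. For Tbk1 they were Tmeff1, Ctsl and Mroh1, at distances of 0.020 to 0.030. For Aim2, Prkar1a and Ctsb were among the nearest, at 0.0265 and 0.0318. For Sting1 they were Tsc1, Eya3 and Parp8, at 0.012 to 0.020, and for Cgas Xkr7, Gm40841 and Phldb3, at 0.054 to 0.073. For Ifi203 the nearest were Gm13663, Gm4117 and Art5, at 0.069 to 0.092. The 6 libraries form 2 groups, and nothing beyond this nearness was measured.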

How the data were processed

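Poly(A)-enriched RNA was sequenced, per the labels' protocols. The authors deposited whole-number read counts per gene for 6 libraries with each gene's summed exon length, made with STAR 2.5.1b and featureCounts on mm10, per the submitters' processing notes; annotation, strand setting and treatment of read pairs are not given in the sources used here. A second deposited table of 20581 genes over 8 samples has the columns of DESeq2: a signal (mean normalised count), log2 fold changes with standard errors, a Wald score and p-values, which the authors computed. Its contrast direction is not stated; all 2829 genes called here have the same sign in it, so it was read as CRISPRa over no sgRNA.

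Genes were filtered with filterByExpr, scaled with TMM factors and tested on the counts with edgeR 4.0.16 (R 4.3.3; quasi-likelihood F test), 3 libraries per group, without covariates, with Benjamini-Hochberg adjustment over 15117 genes. The SE is the log2 fold change divided by the square root of F, and 95% intervals use the t quantile at the test's degrees of freedom. The alternatives were other scalings (RLE, upper quartile, library size), no filter beyond 1 count in total, each library left out, limma 3.58.1 (voom), DESeq2 1.42.0 with independent filtering off, and a replicate block. The fit was tested on simulated data. Exon overlap was computed from the count table, shared 50-base words from GENCODE M21 transcripts, and motifs from RefSeq windows on GRCm38.p6. The names of the members and all lists were chosen with earlier results of these data known. Named were all members, the called genes of each list (up to 6), the genes acting directly beside a member, and the 3 genes most alike to each member, of which 1 is not reported here; Atrip, Ifi202b, Mndal, Tnf, Il18, and uncalled list genes given without values were named after their values were seen.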

Additional observations from a re-analysis of the deposited data

How the results depend on the processing

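Aim2 kept its direction and its call in all 14 alternatives, with log2 fold changes from 0.42 to 0.50. Tbk1 kept its direction in all 14, from 0.23 to 0.33, and its call in the 8 other than the 6 fits without 1 library; of these 8, the pair on replicates 2 and 3 used 4 libraries. The number of members changed was 2 in those 8 settings, Tbk1 and Aim2 each time, and ran from 1 to 2 when 1 library was left out, with Aim2 called each time. Cgas, Sting1 and Ifi203 stayed above an adjusted p of 0.05 in every setting. The number of changed genes in the pathway lists ran from 24 to 35, and over all genes from 1986 to 3174 against 2829. With the library size as the only scaling, 54.5% of changed genes were higher, against 50.6%.

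Replicate numbers 2 and 3 occur in both groups. In these 4 libraries the deviations of same-numbered libraries had a correlation of 0.0080, taken across 15117 genes and thus not across independent replicates. With 2 libraries per group both pairs give this 1 value by construction, so it cannot decide whether they share more than a number. The replicate block on these 4 libraries left Tbk1 and Aim2 as the members changed. It gave 35 pathway genes against 31 in the same 4 libraries without it, and 3174 against 2830 over all genes. The log2 difference of the Ikbke to Tbk1 ratio was 0.76 in these 4 libraries, a mean that pairing does not alter, against 1.40 in all 6. Leaving out 1 library gave 1.04 to 1.91 for that difference, and the raw count ratio 1.40. Ratios of Aim2 and Ifi203 to Ifi204 could not be formed, since Ifi204 had 0 counts in 5 libraries. Depth limits Ikbke, Ifi203 and the other PYHIN genes, and shared exons remove Trex1 from the table at any depth.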
